A study of Mus musculus with 6 samples.

Results

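The genes described here encode the proteins of the cytoplasmic ribosome. They were taken by symbol from the deposited expression table: every protein-coding gene named as a large or small subunit protein, the stalk proteins Rplp0, Rplp1 and Rplp2, and Rpsa. Of 99 genes that matched, 10 Rps6k kinase genes, Rps19bp1 and 5 genes with pseudogene symbols were left out, which gave 83 of the 28987 genes of the table. They comprised 44 large subunit genes, 31 small subunit genes and 8 paralogues (Rpl3l, Rpl7l1, Rpl10l, Rpl22l1, Rpl36al, Rpl39l, Rps27l and Rps27rt). The choice used names alone and no measured value. Rpl24 and Rpl41 were not analysed here.

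RNA was sequenced from sorted bone marrow cells of C57BL/6 mice with CBL and RUNX1 mutations, a combination used as a model of myelodysplastic syndrome. Mice received Mdivi-1, a small molecule known as an inhibitor of the mitochondrial fission protein Drp1, or its vehicle. Mutant Ly6G+ cells, selected by a marker of maturing neutrophils, gave 2 libraries with Mdivi-1 and 2 with vehicle. Hematopoietic stem and progenitor cells (HSCPs), enriched by the stem cell factor receptor CD117 and sorted for the mutant clone, gave 1 library with Mdivi-1 and 1 with vehicle. All groups, vehicle included, carried the mutations, so no library came from unmutated cells. The labels used here give no age, dose, length of treatment, or driver of the mutant alleles, and they do not tie a library to a mouse. P-values therefore measure the spread between these libraries, which may be technical.

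A ribosome joins a small subunit, which reads the messenger RNA, to a large subunit, which forms the peptide bonds. Each subunit protein is normally present in a single copy per ribosome, except for the stalk proteins, and cells that grow and divide make these messengers in large amounts. In human blood disease, inherited loss of a copy of some of these genes causes Diamond-Blackfan anaemia, and RPS14 lies in the region lost in the 5q- form of myelodysplastic syndrome. Most mammalian ribosomal protein genes have intronless processed copies elsewhere in the genome. A read that matches the gene and a copy equally well cannot be placed with certainty.

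The first coding bases of the Rps27 group show how far this goes, and bear on the highest value and the lowest value in the set. They are given from GENCODE M21, whose positions are on GRCm38, for the first 90 coding bases; capitals mark bases of Rps27l that differ from Rps27.
Rps27rt: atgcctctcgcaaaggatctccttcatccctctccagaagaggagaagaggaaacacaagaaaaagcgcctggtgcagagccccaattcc
Rps27l: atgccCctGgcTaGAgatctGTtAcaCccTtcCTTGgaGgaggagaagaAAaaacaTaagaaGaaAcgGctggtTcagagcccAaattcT
The coding sequence of Rps27 (chr3:90212522-90213651, minus strand) was identical to that of Rps27rt (chr9:114982366-114982739, minus strand) over all 252 bases, with 0 differences. Rps27l (chr9:66946086-66949516, plus strand) differed from Rps27 at 60 of 252 bases, 24 of them in the stretch shown, an identity of 76.2%.

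Promoters are shown for members that stood at the ends of the contrasts below. Ribosomal protein messengers commonly begin with a C followed by pyrimidines, the TOP element through which growth signalling regulates their translation. Each stretch, for Rps27l from the first of its 2 RefSeq entries, runs from 50 bases before to 10 bases from the start in RefSeq (GRCm38.p6). Capitals mark a TOP-like run, taken as a C within 5 bases of the start followed by at least 4 bases that are C or T.
Rps28: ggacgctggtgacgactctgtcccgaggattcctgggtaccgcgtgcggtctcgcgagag
Rplp2: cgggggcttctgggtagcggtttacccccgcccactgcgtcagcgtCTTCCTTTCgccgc
Rps23: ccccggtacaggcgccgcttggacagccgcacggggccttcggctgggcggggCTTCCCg
Rps27l: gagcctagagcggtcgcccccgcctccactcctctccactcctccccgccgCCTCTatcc
These lie at chr17:33824553-33824612 (minus strand), chr7:141447601-141447660 (plus), chr13:90923072-90923131 (plus) and chr9:66946036-66946095 (plus). RefSeq promoters were matched for 63 of the 83 members, 55 of them subunit genes. Of those 55, 27 held the TOP-like run (49.1%), against 21.2% of 27025 genes. On either strand, from 250 bases before to 50 after the start, CCGGAAG (a GABP motif) was in 41.8% of the subunit genes and 9.9% of all genes. AAGATGGC (YY1) was in 9.1% against 3.2%, and GGGCGG (SP1) in 61.8% against 38.2%. TATAA was in 29.1% against 28.0%. These are letter matches only and were not tested.

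The labels were checked against cell markers. Kit, which encodes CD117, stood at 8.73 to 14.1 TPM (a share of all transcripts, corrected for length) in the 4 Ly6G+ libraries and at 64.9 and 72.2 TPM in the HSCP libraries. Ly6g stood at 642 to 839.8 TPM in Ly6G+ cells and at 90.1 and 187 TPM in HSCPs. The summed level of 11 neutrophil markers was 257055 to 267925 TPM in Ly6G+ cells and 87116 and 96288 TPM in HSCPs. Markers of immature neutrophils (Mpo, Elane, Prtn3 and Ctsg) summed to 1758 to 1894 TPM in Ly6G+ cells and to 14983 TPM in HSCP Mdivi-1 and 13961 TPM in HSCP vehicle. Genes at 1 TPM or more numbered 11456 to 11930 per library. The depth of the libraries is unknown, since TPM does not hold read numbers, and no interval from counting can be given.

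Ribosomal protein genes held a far smaller share of the Ly6G+ transcriptome than of the HSCP transcriptome, and Mdivi-1 libraries lay close to vehicle libraries in both. The 83 genes held 5.63% and 5.66% of TPM in Ly6G+ Mdivi-1 libraries and 5.68% and 5.82% in Ly6G+ vehicle libraries, against 14.6% in HSCP Mdivi-1 and 14.8% in HSCP vehicle. Over both treatments together, this was 5.70% ± 0.083 (SD, n = 4) in Ly6G+ cells and 14.7% ± 0.13 (SD, n = 2) in HSCPs. The HSCP SD lies between 1 Mdivi-1 and 1 vehicle library and is not a spread of replicates. No Ly6G+ library came near an HSCP library. For genes as listed, without their copies, the ratio of large to small subunit TPM was 1.07 to 1.10 in Ly6G+ libraries. It was 1.14 and 1.13 in HSCP Mdivi-1 and HSCP vehicle, so the groups did not overlap on that scale. Copies and Rps27rt were counted with neither subunit. The ratio was not computed with them, so it does not tell whether the subunits differ beyond the listing. No p-value is given for a sum over the members.

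A large share in another group of genes lowers every other share, and S100a8 and S100a9 held 19.7% to 20.9% of TPM in Ly6G+ libraries against 7.06% and 7.70% in HSCP libraries. With both removed from the total, the members held 7.01% to 7.24% in Ly6G+ libraries and 15.7% and 16.0% in HSCP libraries. In bulk samples, fewer cells of a type and less RNA per cell cannot be told apart.

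**Figure D1:**
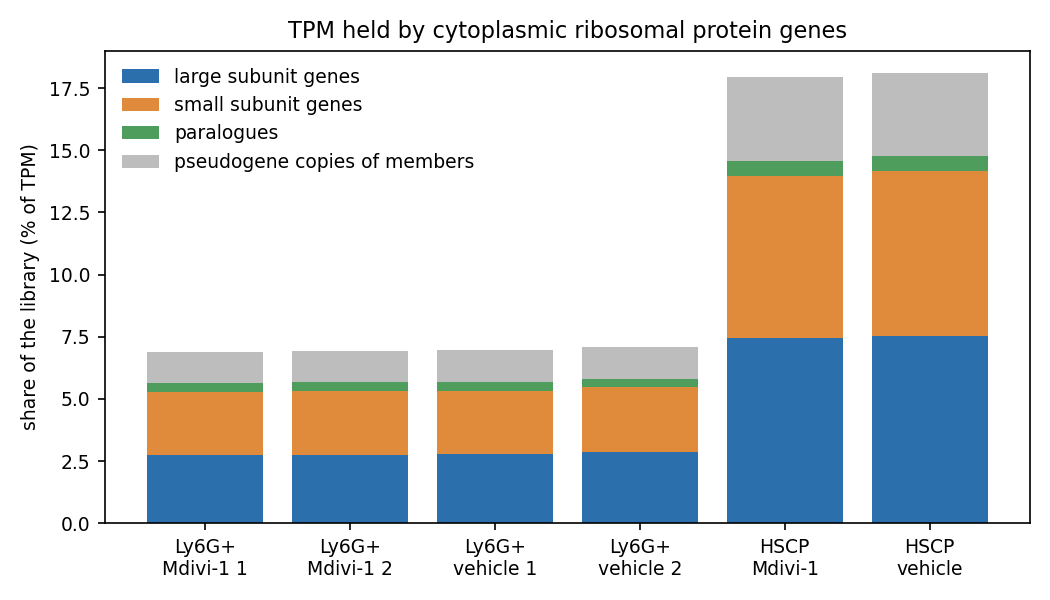
Share of each library's TPM (y axis, %) held by large subunit genes, small subunit genes, paralogues and the pseudogene copies of members, stacked, for the 6 libraries. With copies included, the Ly6G+ bars reach 6.87% to 7.11% and the HSCP bars 17.9% and 18.1%.

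Members differed widely in their listed level, and copies held much of the low end. The table listed 205 copies, and 20 of them had a mean above 100 TPM. A copy was a pseudogene, by type or symbol, with at least 50% of its 31-mers (runs of 31 bases) in a member. Genes of other types were not counted as copies. Across members, between 1% and 100% of 31-mers occurred in no other gene, with a median of 54.5%, and 35 members were under 50%. For 16 of 75 subunit genes, over 50% of the level of gene plus copies was listed on copies. Of the 75 subunit genes, 15 had a mean under 500 TPM as listed, but 2 did when each gene was summed with its copies. The ratio of upper to lower quartile fell to 1.65 with copies, against 2.03 without.

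Rps27, a zinc finger protein of the small subunit mutated in some Diamond-Blackfan patients, was listed at 0 in all 6 libraries. Rps27rt, identical in its coding sequence, was listed at 2775 and 2735 TPM in Ly6G+ Mdivi-1 and 2857 and 2702 TPM in Ly6G+ vehicle. It stood at 4233 TPM in HSCP Mdivi-1 and 4244 TPM in HSCP vehicle. It had the highest mean of the whole set, 3258 TPM, and coding reads cannot divide it between Rps27 and Rps27rt. Over whole transcripts, 49.9% of the 31-mers of Rps27 and 7.3% of those of Rps27rt occurred in no other gene. Rpl31, a large subunit protein near the peptide exit, averaged 9.76 TPM as listed and 1937 TPM with its copies, 99.5% of it on them. Rpl5, which carries the 5S rRNA with Rpl11, averaged 29.4 TPM alone and 255 TPM with copies, and was the lowest subunit gene on the second scale.

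At the high end, the large subunit was led by Rpl13a (2317 TPM as a mean of the 6 libraries), the stalk gene Rplp1 (2139.9 TPM) and Rpl26 (2001 TPM). As listed, the small subunit was led by Rps26 (2659.8 TPM), Rps9 (2154 TPM) and Rps14 (1920.1 TPM). With copies, Rps27 (3258 TPM, listed on Rps27rt), Rps12 (2563 TPM) and Rps6 (2180 TPM) also stood above Rps9 and Rps14. The order of Rpl13a and Rplp1 depended on the population: Rpl13a spanned 1308 to 1778 TPM and Rplp1 922 to 1116 TPM in Ly6G+ libraries, whereas in HSCPs Rpl13a stood at 3884 and 3680.1 TPM and Rplp1 at 4229 and 4534 TPM with Mdivi-1 and vehicle.

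**Figure D2:**
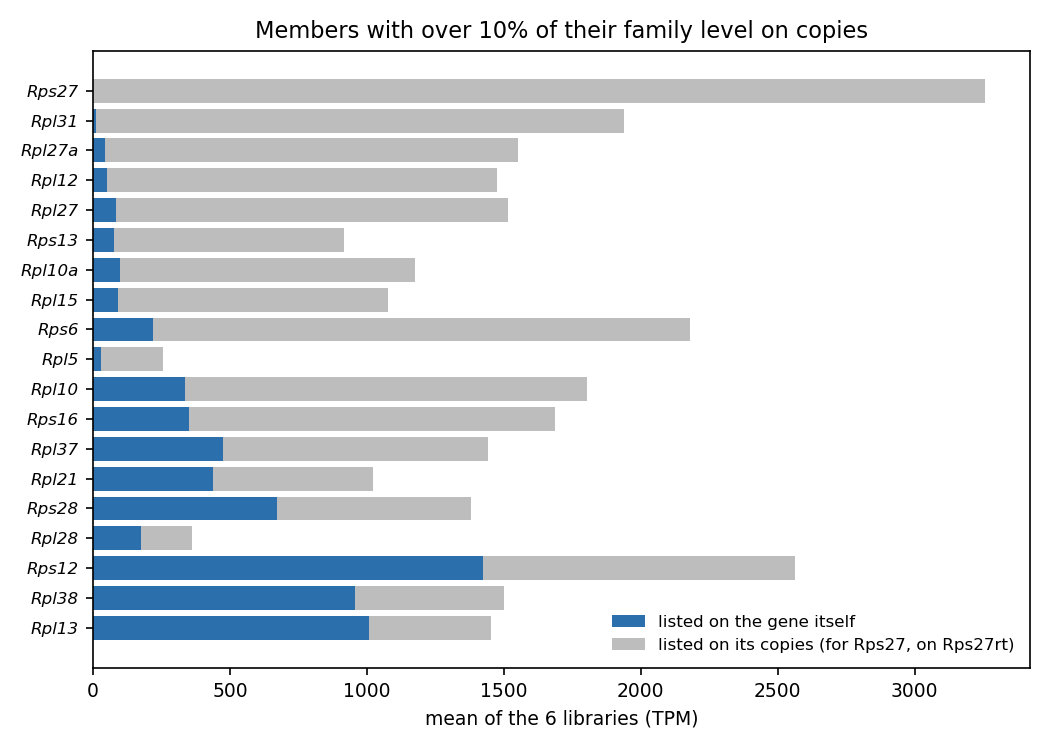
Mean TPM over the 6 libraries (x axis) of the 19 subunit genes with over 10% of their family level on copies, split into the gene itself and its copies. Rps27 is listed wholly on Rps27rt, and Rpl31 almost wholly on copies.

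The populations were then compared. In Ly6G+ cells, nearly the whole set was lower than in HSCPs: of the 81 members that reached 1 TPM in at least 2 libraries, 79 fell, 1 rose (Rpl3l) and 1 did not pass (Rpl39l), by limma over all genes with a Benjamini-Hochberg adjusted p under 0.05. All 44 large subunit genes and all 30 small subunit genes tested were among the 79. Over all 12338 genes tested, 50.3% were called lower and 22.2% higher. The median log2 change, Ly6G+ over HSCP, was −1.38 for the members and −0.35 for all genes tested. Members ranged from −2.49 to 1.10.

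The median of all genes tested was itself below 0. With median-of-ratios scaling, which moved the median of all genes to −0.02, the members still numbered 79 lower and 1 higher of 80, at a median of −1.02, while 34.5% of all genes were lower and 33.3% higher. With S100a8 and S100a9 left out the member median was −1.16. With each gene summed with its copies, 77 fell and 2 rose (Rpl3l and Rpl28) of 81 at a median of −1.38, beside 50.4% lower and 22.3% higher of all genes. Rpl28 had 0.29 with copies and −1.52 alone, with its copy Rpl28-ps1 listed at 0 in both HSCP libraries and at 245 to 291 TPM in Ly6G+ libraries. Rpl5 had 0.55 with copies (limma adjusted p = 0.321), with its copy Gm15500 at 202 to 288 TPM in Ly6G+ libraries, 305 TPM in HSCP Mdivi-1 and 53.4 TPM in HSCP vehicle.

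**Figure D3:**
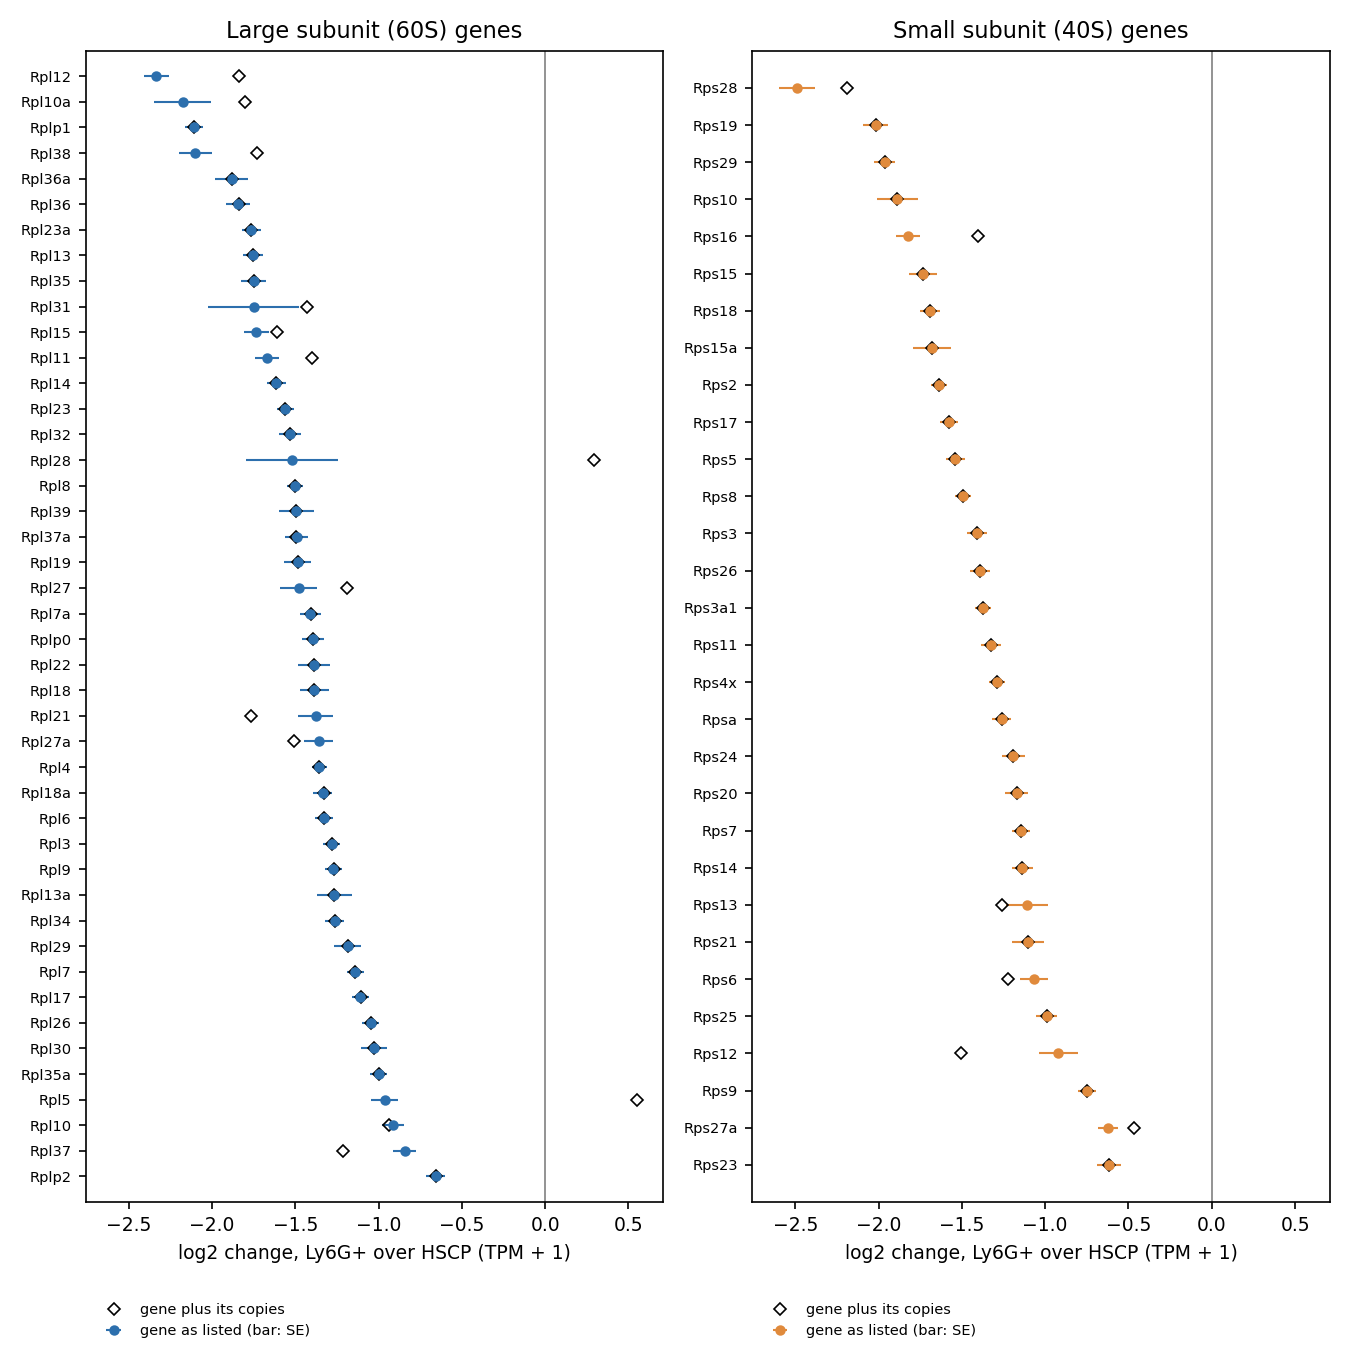
Log2 change in TPM + 1, Ly6G+ over HSCP (x axis), for 44 large subunit genes (left) and 30 small subunit genes (right), ordered by size; filled points are genes as listed with their SE, open diamonds the same gene plus its copies. Every filled point lies below 0, and of the diamonds only Rpl28 and Rpl5 lie above it.

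Among small subunit genes, Rps28, a small protein near the messenger exit, fell most. It stood at 226 and 251 TPM in Ly6G+ Mdivi-1 and 255 and 326 TPM in Ly6G+ vehicle, against 1414 TPM in HSCP Mdivi-1 and 1549 TPM in HSCP vehicle. The groups did not overlap, and the log2 change was −2.49 (SE 0.11, limma adjusted p = 1.02e-05), or −2.19 with its copies, which held 51.4% of the family. Rps19, the gene most often mutated in Diamond-Blackfan anaemia and needed to mature the small subunit, had 595 and 510.1 TPM in Ly6G+ Mdivi-1, 668 and 684 TPM in Ly6G+ vehicle, 2340.3 TPM in HSCP Mdivi-1 and 2615 TPM in HSCP vehicle. It fell by 2.02 on the log2 scale (SE 0.076, limma adjusted p = 8.12e-06), and no listed copy shared its level.

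The small subunit also held the smallest falls. Rps23, a protein of the decoding centre, stood at 749 and 767 TPM in Ly6G+ Mdivi-1 and 590.5 and 556 TPM in Ly6G+ vehicle, against 1071 TPM in HSCP Mdivi-1 and 955 TPM in HSCP vehicle. Its log2 change was −0.62 (SE 0.07, limma adjusted p = 0.000302). Rps27a, made as a fusion with ubiquitin, had 1417 and 1403 TPM in Ly6G+ Mdivi-1, 1253 and 1252 TPM in Ly6G+ vehicle, 2026 TPM in HSCP Mdivi-1 and 2074 TPM in HSCP vehicle. Its change was −0.62 (SE 0.061, limma adjusted p = 0.000153) and −0.47 with copies. For both genes the Ly6G+ libraries lay below the HSCP libraries, at a distance well under that of Rps28.

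In the large subunit, the lateral stalk, which recruits the elongation factors, was unequal. Its acidic protein Rplp1 had 949.6 and 922 TPM in Ly6G+ Mdivi-1, 1089 and 1116 TPM in Ly6G+ vehicle, 4229 TPM in HSCP Mdivi-1 and 4534 TPM in HSCP vehicle. Its partner Rplp2 had 1452 and 1314 TPM in Ly6G+ Mdivi-1, 1272 and 1312 TPM in Ly6G+ vehicle, 2164 TPM in HSCP Mdivi-1 and 2051 TPM in HSCP vehicle. Rplp1 was thus the higher of the pair in both HSCP libraries, and Rplp2 the higher in all 4 Ly6G+ libraries. The log2 change was −2.11 for Rplp1 (SE 0.054, limma adjusted p = 6.92e-06), −0.66 for Rplp2 (SE 0.058, limma adjusted p = 0.000105) and −1.39 for Rplp0, on which both sit (SE 0.064, limma adjusted p = 1.18e-05). No pseudogene copy of Rplp1 or Rplp2 was in the table, and genes of other types were not counted as copies. Of the 31-mers of Rplp1 24.9% occurred in no other gene, and of those of Rplp2 65.1%.

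Other large falls were in Rpl12, at the base of that stalk, and Rpl10a, the protein of the opposite, L1 stalk. Rpl12 was listed at 19.5 to 22.6 TPM in Ly6G+ cells and at 110.1 and 109 TPM in HSCP Mdivi-1 and vehicle, a log2 change of −2.33 (SE 0.076, limma adjusted p = 6.92e-06). With its copies, which held 96.6% of the family, the change was −1.84. Rpl10a changed by −2.18 alone and by −1.80 with copies, and Rpl38, known in mice for a role in translating Hox messengers, by −2.10 and −1.73 (limma adjusted p = 7.9e-05 and 1.24e-05 for the genes alone). For all 3, the fall was smaller with the copies counted.

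**Figure D4:**
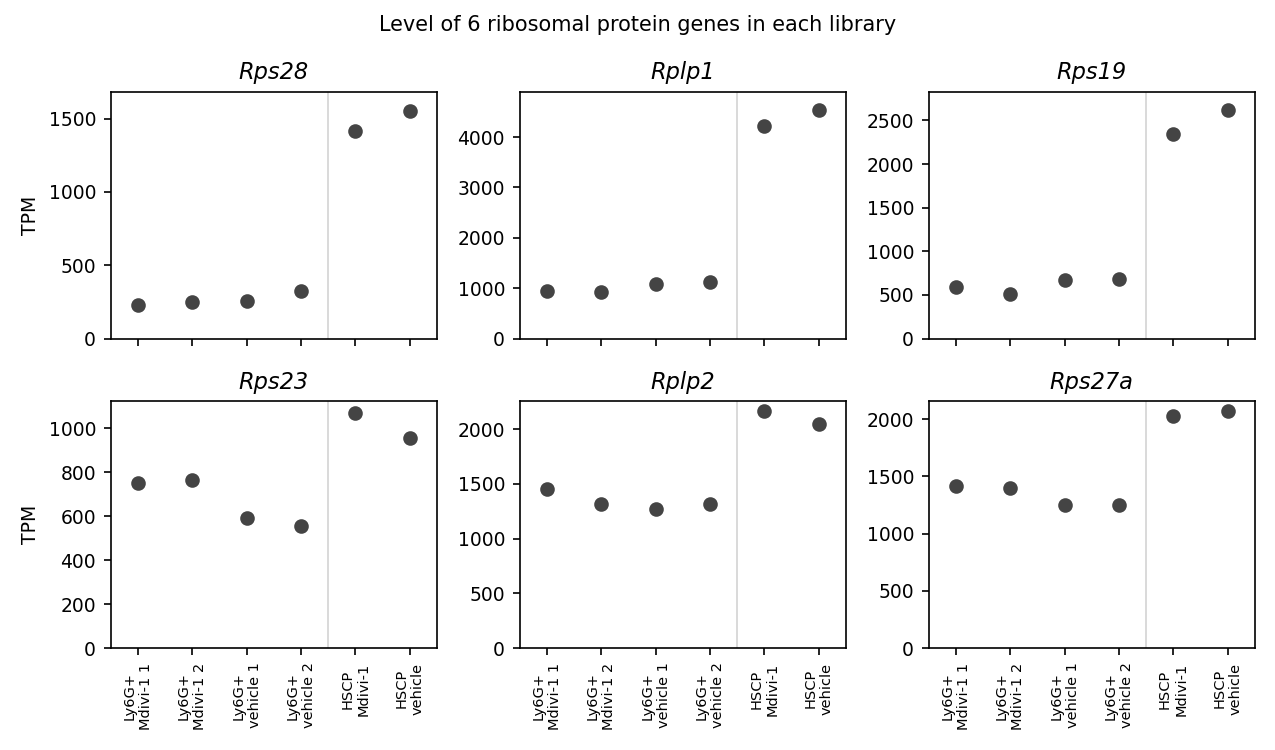
TPM (y axis, from 0) of Rps28, Rplp1, Rps19 (top) and Rps23, Rplp2, Rps27a (bottom) in each library, with the Ly6G+ libraries left of the grey line and the HSCP libraries right of it. Rps28 lies at 226 to 326 TPM in Ly6G+ cells and 1414 and 1549 TPM in HSCPs, while Rplp2 lies at 1272 to 1452 and 2051 to 2164 TPM.

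The paralogues were mixed. Rpl3l, the form of Rpl3 known from striated muscle, was low in every library, at 2.93 and 2.97 TPM in Ly6G+ Mdivi-1, 1.84 and 3.13 TPM in Ly6G+ vehicle, 0.546 TPM in HSCP Mdivi-1 and 0.895 TPM in HSCP vehicle. Its log2 change was 1.10 (SE 0.21, limma adjusted p = 0.00315), but it reached 1 TPM only in Ly6G+ libraries and could pass the filter only through them. Rpl3 itself changed by −1.28. Rpl39l, known from testis, spanned 0.175 to 1.27 TPM in Ly6G+ libraries and 0.109 and 1.17 TPM in HSCP Mdivi-1 and vehicle, with no call (log2 change 0.07, limma adjusted p = 0.873). Rpl10l, also a testis form, was listed at 0.149 TPM in Ly6G+ Mdivi-1 replicate 1, 0.0795 TPM in Ly6G+ vehicle replicate 2 and 0 elsewhere, and was not tested.

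The 5 remaining paralogues fell. Rpl22l1 changed by −1.71 and its partner Rpl22 by −1.39. Rps27l, known as a p53 target in human cells, changed by −1.12 and Rps27rt by −0.62. Rpl36al changed by −1.19 and Rpl36a by −1.88, and Rpl7l1 by −0.95 and Rpl7 by −1.14. Limma adjusted p-values of these 8 genes lay between 1.14e-05 and 6.35e-05.

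For 20 members, the human counterparts are mutated in Diamond-Blackfan anaemia or lost in the 5q- syndrome. As listed, 19 were tested and all 19 fell, where 50.3% of all genes tested did. Their median was −1.58, beside −1.38 for all members. Copies held 51.4% of the family of Rps28, 88.5% for Rpl5, 91.4% for Rpl15, 94.5% for Rpl27 and 99.5% for Rpl31. With its copies Rpl5 did not fall, as given above. Rps14 had 1288 and 1240.0 TPM in Ly6G+ Mdivi-1, 1448 and 1520.2 TPM in Ly6G+ vehicle, 2968 TPM in HSCP Mdivi-1 and 3058 TPM in HSCP vehicle, a log2 change of −1.14 (SE 0.062, limma adjusted p = 1.88e-05). Rpl11, which with Rpl5 can bind Mdm2 when ribosome assembly fails, had 593 and 625 TPM in Ly6G+ Mdivi-1, 556 and 633 TPM in Ly6G+ vehicle, 1870.2 TPM in HSCP Mdivi-1 and 1960.3 TPM in HSCP vehicle. It changed by −1.67 (SE 0.07, limma adjusted p = 9.62e-06), and by −1.40 with copies.

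Members also differed from each other once the common fall was taken out. With every library scaled to the summed level of the members, 21 members were relatively higher in Ly6G+ cells and 28 relatively lower, of 81 tested by limma. On that scale 69.6% of all genes were higher and 5.56% lower. Of those 21 and 28 members, 17 and 26 kept their call when each gene was summed with its copies. Of the 81, 80 were in both fits, since Rps27rt was added to Rps27 and could not keep a call. Relative to the rest of the set, Rps28 changed by −1.15, Rplp1 by −0.76 and Rps19 by −0.67, while Rps23 changed by 0.72, Rps27a by 0.72 and Rplp2 by 0.69. Limma adjusted p-values of these 6 lay between 1.32e-05 and 0.000168. Across 74 subunit genes, the change between populations had a Pearson's r of 0.15 with transcript length, 0.06 with the share of unique 31-mers and 0.17 with mean level; the genes share the same 6 libraries, and these values are descriptions.

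Genes that build and serve ribosomes were lower in Ly6G+ cells as well. Of 51 tested ribosome biogenesis genes, 51 fell, at a median of −1.60, where 50.3% of all genes tested fell and 22.2% rose. Nop10, of the pseudouridylation particle, changed by −2.39, Gar1 of the same particle by −2.24, and Grwd1 and Rrs1, which assist assembly, by −2.25 and −2.16 (limma adjusted p between 8.42e-06 and 3.44e-05). Of 14 genes listed for RNA polymerase I, which makes the ribosomal RNA, 12 fell and 1 rose (Polr1a). All 6 elongation factor genes fell. The most abundant, Eef1a1, stood at 2998 and 2917 TPM in Ly6G+ Mdivi-1, 3113 and 3345 TPM in Ly6G+ vehicle, 7816 TPM in HSCP Mdivi-1 and 7653 TPM in HSCP vehicle.

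The initiation factors were less uniform. Of 30, 25 fell and 2 rose: Eif1, which guides start codon choice, and Eif4g3. Eif1 had 944 and 1078 TPM in Ly6G+ Mdivi-1 and 772 and 746 TPM in Ly6G+ vehicle, against 479 TPM in HSCP Mdivi-1 and 489 TPM in HSCP vehicle. Fau, whose product is a ribosomal protein made as a ubiquitin-like fusion, changed by −1.80, and Rack1, a scaffold on the small subunit, by −1.32 (limma adjusted p = 0.000265 and 1.32e-05). Tpt1, a growth-associated protein whose messenger also bears a TOP element, changed by −0.09 without passing (limma adjusted p = 0.181). Of 15 genes of the TOR pathway and TOP binding, 7 fell and 1 rose (Eif4ebp1). Of 11 p53 targets 4 fell and 3 rose (Trp53inp1, Sesn2 and Mdm2). Over all genes tested, 50.3% fell and 22.2% rose. Falls were thus no more frequent in the p53 list or the TOR and TOP list than over all genes. They were more frequent among the initiation factors. The counts of the lists around the ribosome depended on the scaling. Under median-of-ratios scaling, 33.3% of all genes were higher and 34.5% lower. There the p53 targets had 6 higher and 3 lower, so the balance turned. The initiation factors had 5 higher and 25 lower, and the TOR and TOP list had 2 higher and 5 lower. Tpt1 became 0.27 (limma adjusted p = 0.00926). Relative to the summed members, where 69.6% of all genes were higher, the initiation factors had 22 higher and 3 lower, the TOR and TOP list 10 higher and 0 lower, and the p53 targets 8 higher and 1 lower. On that scale the biogenesis genes had 11 higher and 28 lower, the polymerase I genes 8 higher and 3 lower, and the elongation factors 3 higher and 1 lower. Myc, a driver of ribosome production, stood at 12.5 to 14.9 TPM in Ly6G+ cells, 122 TPM in HSCP Mdivi-1 and 69.3 TPM in HSCP vehicle. In Ly6G+ cells, the sum of maturing neutrophil markers and the share of S100a8 and S100a9, given above, were higher. The sum of immature neutrophil markers was lower. The members were also fitted without S100a8 and S100a9, but the part of these differences in the lists was not tested.

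Mdivi-1 was compared with vehicle in Ly6G+ cells next. Few members changed: of 80 tested, 2 rose (Rps23 and Rps27l) and 1 fell (Rpl37a) by limma at an adjusted p under 0.05. Over the 11775 genes tested, 2.46% were called higher and 4.24% lower, so these counts are close to the background. The median log2 change, Mdivi-1 over vehicle, was −0.03 for the members and −0.05 for all genes. Members ranged from −0.41 to 0.42, and 24 had an unadjusted p under 0.05, as did 25.7% of all genes.

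Rps23 stood at 749 and 767 TPM in Ly6G+ Mdivi-1 libraries and 590.5 and 556 TPM in Ly6G+ vehicle libraries, with a log2 change of 0.40 (SE 0.053, limma adjusted p = 0.023). Rps27l stood at 247 and 230.2 TPM with Mdivi-1 and 191 and 189 TPM with vehicle, a change of 0.32 (SE 0.057, limma adjusted p = 0.0429). Rpl37a, a zinc-binding protein of the large subunit, stood at 620.3 and 610.2 TPM with Mdivi-1 and 718 and 749.9 TPM with vehicle, a change of −0.25 (SE 0.049, limma adjusted p = 0.0497). For all 3 genes the treated libraries lay apart from the vehicle libraries. This adds no support, since the genes were chosen by the call on these same libraries. Over all alternatives run, the limma adjusted p lay between 0.0146 and 0.148 for Rps23, 0.0248 and 0.199 for Rps27l, and 0.0383 and 0.225 for Rpl37a: all 3 calls ended without the trended prior, without the filter and under the replicate block, and that of Rpl37a also at pseudocounts of 0.1 and 5, under median-of-ratios and upper-quartile scaling and relative to the summed members. Leaving out any 1 of the 4 libraries gave 0 members called, but such a fit has 1 residual degree of freedom and an arm of 1 library, assumed to vary like the other, and it called 22 to 279 of all genes, where 789 were called with all 4 libraries.

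Larger changes did not pass. Rps6, the substrate of S6 kinase, had 171 and 198 TPM with Mdivi-1 and 142 and 132 TPM with vehicle, a change of 0.42 (limma adjusted p = 0.0629) that became 0.05 with its copies, which held 89.9% of the family. Rps10, a Diamond-Blackfan gene, had 382 and 433 TPM with Mdivi-1 and 574 and 507 TPM with vehicle, a change of −0.41 (limma adjusted p = 0.0702). Rpl10a had −0.36 alone and −0.09 with copies. Rplp1 changed by −0.24 (limma adjusted p = 0.0521), Rps14 by −0.23, Rps19 by −0.30, Rpl5 by 0.09 and Rpl11 by 0.04. Of the 19 tested Diamond-Blackfan and 5q- genes, 0 passed limma's adjusted threshold and 5 had an unadjusted p under 0.05, a level that 25.7% of all genes reached.

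Of the paralogues, Rpl36al had 0.27 and its partner Rpl36a 0.30, neither past the threshold (limma adjusted p = 0.0776 and 0.0738). Rpl3l had 0.20, Rpl22l1 0.01, Rpl7l1 −0.01 and Rps27rt −0.01. Rpl39l and Rpl10l did not reach the filter in these 4 libraries.

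The lists around the ribosome gave few calls, where 2.46% of all genes rose and 4.24% fell. Of 50 ribosome biogenesis genes, 2 rose, Nop16 at 0.50 and Npm1, a nucleolar histone chaperone, at 0.33 (limma adjusted p = 0.0494 and 0.0276), and 0 fell. Eif1 rose by 0.41 (limma adjusted p = 0.0469) and was the 1 call among 30 initiation factors, and Trp53inp1 rose by 0.49 (limma adjusted p = 0.0232) and was the 1 call among 10 p53 targets. By limma, 0 of 14 polymerase I genes, 0 of 6 elongation factors and 0 of 14 TOR and TOP genes passed. Of these lists, 0, 2 and 6 genes had an unadjusted p under 0.05, a level that 25.7% of all genes reached. Under median-of-ratios scaling, 1 elongation factor and 1 TOR or TOP gene were called higher.

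Marker lists of other cell types gave unequal calls in the same libraries, where 4.24% of all genes fell and 2.46% rose. In Ly6G+ cells, 8 of 9 B cell markers, 5 of 6 megakaryocyte markers and 5 of 5 basophil and mast cell markers fell with Mdivi-1, and none of these markers was at 0 in any library. The B cell markers summed to 22.4 and 23.3 TPM with Mdivi-1 and 141 and 142 TPM with vehicle. The megakaryocyte markers summed to 92.8 and 84.2 TPM with Mdivi-1 and 206 and 205 TPM with vehicle, and the basophil and mast cell markers to 162 and 171 TPM with Mdivi-1 and 484 and 490.4 TPM with vehicle. Falls were also called for 3 of 9 stem and progenitor, 3 of 7 erythroid, 2 of 5 monocyte and 2 of 4 dendritic cell markers. Of 11 neutrophil markers 3 rose and 4 fell, and of 4 T and NK cell markers 1 rose and 0 fell. By limma's adjusted threshold, 0 of 4 immature neutrophil and 0 of 2 eosinophil markers passed, and 1 and 0 of them had an unadjusted p under 0.05. The part of these cell types in the changes of Rps23, Rps27l and Rpl37a was not tested.

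In HSCPs, with 1 library per treatment, there is no test, and members counted as different when the log2 ratio of TPM + 1 was at least 0.5 in size at a mean of at least 10 TPM. Of 79 members at that level, 0 did, where 3.69% of 7975 genes did. The median ratio, Mdivi-1 over vehicle, was 0.01 for the members and 0.02 for all genes. The lowest was Rps15a, a small subunit protein, at 1703 TPM with Mdivi-1 and 2407 TPM with vehicle (log2 ratio −0.50, just inside the limit). The highest was Rpl31 at 22.5 TPM with Mdivi-1 and 15.8 TPM with vehicle (0.48). Copies held nearly all of its family level, and with them the ratio was −0.04.

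Rps12 and Rps13 had ratios above 0 that were nearer 0 with copies. Rps12 had 2315 TPM with Mdivi-1 and 1844 TPM with vehicle (0.33), and Rps13 129 TPM with Mdivi-1 and 109 TPM with vehicle (0.25). With their copies the ratios were 0.04 for Rps12 and 0.04 for Rps13. Rps21 had 2499 TPM with Mdivi-1 and 3034 TPM with vehicle (−0.28), and Rpl22l1 301 TPM with Mdivi-1 and 347 TPM with vehicle (−0.21). With copies, Rps15a had −0.50, Rps21 −0.28 and Rpl22l1 −0.21. In the same libraries the 51 biogenesis genes had a median ratio of 0.25, with 2 past 0.5 (Utp20 and Nat10), and Myc had 122 TPM with Mdivi-1 and 69.3 TPM with vehicle. Megakaryocyte markers summed to 157 TPM with Mdivi-1 and 312 TPM with vehicle, and eosinophil markers to 358 and 645 TPM. Dendritic cell markers summed to 184 TPM with Mdivi-1 and 293 TPM with vehicle, and B cell markers to 48.7 and 76.7 TPM. Sums of erythroid markers (3616 and 3485 TPM) and immature neutrophil markers (14983 and 13961 TPM) were higher with Mdivi-1, and the other marker sums were lower. Among the latter, the maturing neutrophil markers summed to 87116 TPM with Mdivi-1 and 96288 TPM with vehicle. The part of these cell types was not tested.

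The Mdivi-1 effects of the populations were set side by side. Of 79 members measured in both, 36 had the same sign in Ly6G+ cells and HSCPs, and Pearson's r across these genes was −0.00162, a description over genes that share libraries. Rps23 had 0.40 in Ly6G+ cells and 0.16 in HSCPs, and Rps27l 0.32 and 0.03. In limma's test of the difference itself, 0 of 81 members passed, where 0.0% of 12338 genes did, and 11 members had an unadjusted p under 0.05, as did 11.3% of all genes. Rps15a had the lowest limma adjusted p of the named members, 0.27, with a difference of 0.50 (SE 0.11), Ly6G+ effect minus HSCP effect. That test assumes that the lone HSCP libraries vary like the Ly6G+ libraries.

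**Figure D5:**
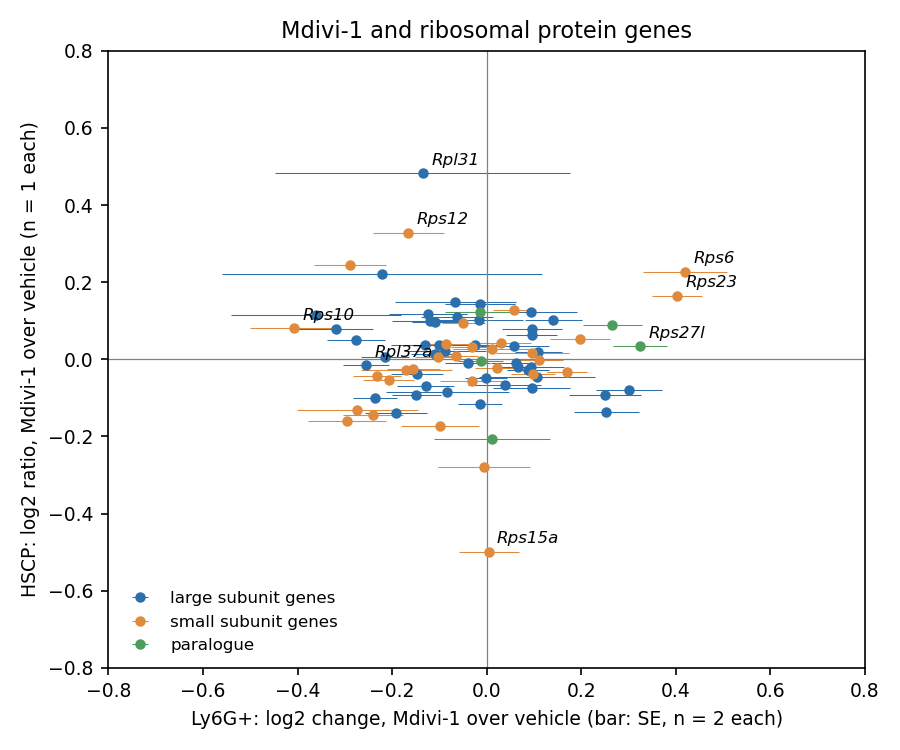
Log2 change with Mdivi-1 in Ly6G+ cells (x axis, with SE) against the log2 ratio of the lone HSCP libraries (y axis), for the 79 members measured in both. Points scatter around 0 on both axes, with Rps23 and Rps6 to the right, Rps10 to the left, Rpl31 at the top and Rps15a at the bottom.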

How the data were processed

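RNA sequencing of 6 libraries was deposited by the authors as TPM per gene (28987 genes). The reads were handled with bcl2fastq, CASAVA 1.8 and kallisto on mm10, per the submitters' processing notes. For the annotation, strand and gene summing, nothing is stated in those notes. Antisense partners are therefore not separable. TPM values are shares, so a large gain elsewhere lowers every member. Symbols and positions came from GENCODE M21 (27458 genes matched).

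The members, gene lists and tests were chosen with earlier results of these data known. A count test had been planned; as the file holds TPM, limma 3.58.1 (R 4.3.3) was used on log2(TPM + 1), with trended, robust variance, over genes that reached 1 TPM in 2 or more libraries of the comparison. Benjamini-Hochberg adjustment ran over all genes, with a threshold of 0.05. Fold changes understate low genes. Ly6G+ treatment used 4 libraries. Populations used 6 with treatment as a covariate, and the difference of effects used 4 group means. The code of the fits was run on simulated data with known changes. Its noise was drawn from limma's own variances for these libraries, so that run does not test how libraries vary.

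Copies were pseudogenes, by type or symbol, that shared at least 50% of their 31-mers with a member in M21 transcripts. That step was chosen after seeing the data. Named genes are every paralogue, the blood disease genes, the 3 highest members of each subunit and the 3 lowest, up to 5 called members per direction and comparison (or up to 3 by size where fewer passed), and up to 4 genes per list. Genes outside that rule (Rpl3, Rpl22, Rpl36a, Rpl7, Rplp0, Polr1a, Eif4g3, Eif1 and Eif4ebp1 between populations, Rpl28, Utp20, Nat10) were chosen after their values were seen. Replicate numbers did not pair the Ly6G+ libraries.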

Additional observations from a re-analysis of the deposited data

How the results depend on the processing

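Of the Ly6G+ against HSCP result, 78 or 79 members were lower by limma in every scaling, filter, pseudocount, prior and leave-one-out setting except those relative to the set (28, or 29 with copies) and gene plus copies (77). The count higher, 1 as reported, was 21 relative to the set, 2 with copies, 20 with both and 0 at a filter of 5 TPM. The member median of −1.38 became −1.02 under median-of-ratios, −1.06 under upper-quartile scaling, −1.16 without S100a8 and S100a9, and −0.0424 relative to the set (−0.0333 with copies). Relative to the set, without and with copies, these turned positive: Rpl36al 0.15 and 0.16, Rpl5 0.34 and 1.89, Rpl7l1 0.37 and 0.38, Rplp2 0.69 and 0.69, Rps14 0.21 and 0.21, Rps23 0.72 and 0.73, Rps27a 0.72 and 0.89, Rps27l 0.22 and 0.23, and Rps27rt 0.73 without. That scale subtracts the fall of the whole set. Rpl5 was 0.55 with copies alone, and Rpl39l −0.43 without HSCP Mdivi-1.

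The Ly6G+ Mdivi-1 calls depended on the setting, and the cause was not tested. The 2 higher became 4 under median-of-ratios scaling and relative to the set with copies, and 0 without the trended prior, without a filter and under the replicate block. Leaving out a library gave 0 members higher and 0 lower each time. The 1 lower became 2 without S100a8 and S100a9 and at a filter of 5 TPM. It became 0 at pseudocounts of 0.1 and 5, under median-of-ratios and upper-quartile scaling, relative to the set with or without copies, without the trended prior, without a filter and under the replicate block. The block used replicate numbers whose libraries did not deviate in the same direction (r = −0.03 across all genes tested and −0.37 across the members tested). The median of −0.03 became 0.0369 and 0.0327 under median-of-ratios and upper-quartile scaling. Members near 0 changed sign. Rpl7l1 became 0.0497, 0.0456, 0.0125 and 0.0155 under median-of-ratios, upper-quartile, relative to the set and the same with copies. Rps27rt became 0.0524, 0.0482 and 0.0143 under the first 3, and Rpl22l1 −0.00284 with copies. Leaving out a library, Rpl7l1 ran from −0.0758 to 0.0484, Rps27rt from −0.0527 to 0.0277, Rpl22l1 from −0.16 to 0.19, Rpl11 from −0.0552 to 0.13 and Rpl3l from −0.0654 to 0.47.

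The median difference of effects, −0.05, became 0.0482 and 0.0375 under median-of-ratios and upper-quartile scaling. In HSCPs, 1 member was higher at a pseudocount of 0.1 and 1 with copies, and 1 lower under median-of-ratios, upper-quartile scaling and without S100a8 and S100a9. The share held by members, 5.70% in Ly6G+ cells and 14.7% in HSCPs, became 7.15% and 15.8% without S100a8 and S100a9, 5.84% and 15.3% without mitochondrial genes, 6.54% and 16.9% with pseudogenes named after members, 5.35% and 14.1% without paralogues, and 6.96% and 18.0% with copies. Settings with copies were chosen after seeing the data. A count tool (DESeq2) was not run, since TPM keeps no counts.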

Other observations

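Within the table, the listing of reads on copies differed between libraries of the same population. The Rpl5 copy Gm15500 stood at 305 TPM in HSCP Mdivi-1 and 53.4 TPM in HSCP vehicle, which put Rpl5 plus copies at a log2 ratio of 1.86, while Rpl5 itself stood at 45.9 TPM with Mdivi-1 and 42.1 TPM with vehicle. Of the 205 copies, 24 were listed at 0 in every library. Of the 83 members, 79 were listed at 1 TPM or more in all 6 libraries.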
